A study of Homo sapiens with 8 samples.

Results

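The 31 genes described here are established targets of the transcription factor p53, chosen by symbol from a list of such targets out of 16126 genes listed in at least 1 of 3 deposited tables. All 31 were listed in the C4-2B and CWR-R1 tables and 30 in the VCaP table, where TNFRSF10D is not listed. The data are RNA-seq of poly(A) RNA from 8 libraries. They cover 3 human prostate cancer lineages, each as cells sensitive to enzalutamide and cells resistant to it (ENZR). Enzalutamide is a drug that blocks the androgen receptor. C4-2B, a castration-resistant derivative of the LNCaP line, gave 2 libraries of C4-2B and 2 of C4-2BENZR, which the labels call biological replicates, and all 4 carry luciferase and GFP transgenes. CWR-R1, from a relapsed prostate xenograft, and VCaP, from a vertebral metastasis, gave 1 library for each of CWR-R1, CWR-R1ENZR, VCaP and VCaPENZR. The labels do not say how resistance was obtained, whether the drug was present at harvest or whether a population is a single clone, and each comparison sets 1 resistant population against 1 sensitive population.

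p53 is held at a low level by the ubiquitin ligase MDM2 and accumulates after DNA damage and other stress. It then activates genes that stop the cell cycle, repair DNA, change metabolism or start cell death, and also activates MDM2, which closes a feedback loop. Many of these targets answer to other transcription factors too, among them the stress factors that raise GDF15 and the death receptor gene TNFRSF10B.

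A pair of p53 half-sites lay in a promoter window of 5 of the genes: MDM2, FAS, AEN, FDXR and DDB2. The first 4 pairs, which lie upstream of a start, are shown with the single half-sites of SESN1 and PLK2. EI24 and RPS27L, which also carry results below, each had a single half-site that is not shown. The windows are those of RefSeq on GRCh38.p14, 250 bases before to 50 after each start, and 24 of the 31 genes had one. The half-site searched was the p53 consensus decamer, which reads alike on both strands. A pair was counted where its decamers lay at most 13 bases apart with at most 2 mismatches in all and the central C and G of both kept; each pair shown has 2 mismatches. In the sequences below, written from 5′ to 3′ along the gene, capitals mark the decamers.
MDM2, chr12:68808903-68808962, plus strand: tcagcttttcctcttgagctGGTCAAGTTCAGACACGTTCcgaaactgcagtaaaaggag
FAS, chr10:88991304-88991333, plus strand: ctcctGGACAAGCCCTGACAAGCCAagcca
AEN, chr15:88621301-88621330, plus strand: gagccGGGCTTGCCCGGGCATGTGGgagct
FDXR, chr17:74872996-74873025, minus strand: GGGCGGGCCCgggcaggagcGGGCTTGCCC
SESN1, chr6:109009008-109009057, minus strand: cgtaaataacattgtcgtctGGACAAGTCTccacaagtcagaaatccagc
PLK2, chr5:58460199-58460228, minus strand: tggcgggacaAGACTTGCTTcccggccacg
The pairs of MDM2, FAS and AEN had no base between their decamers and that of FDXR had 10. In the GENCODE annotation the MDM2 and SESN1 stretches lie inside the transcribed region of their genes and in no protein-coding exon, whereas those of FAS, AEN, FDXR and PLK2 overlap an annotated exon of the gene (for FAS, of ACTA2 too). An exact decamer was found in 8 of the 24 genes (33.3%), against 8.06% of 27305 genes with a window, and a pair in 5 (20.8%) against 3.62%. The windows of CDKN1A, GDF15, BBC3 and BTG2 held neither, which says only that these letters are not in this window. A match in the reference is a description of letters, and binding was not measured.

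Levels below are reads divided by a scaled library size, as deposited, and are close in size to CPM. Between 14503586 and 20248655 reads fell in the listed genes of a library. The prostate gene HOXB13 and the epithelial keratins KRT8 and KRT18 were present in all 8 libraries, while KLK3, which encodes prostate-specific antigen, was at 1.96 in CWR-R1 and had 0 reads in CWR-R1ENZR. ERG, which VCaP expresses from a gene fusion, was at 428 in the VCaP library and at 0.179 (3 reads) in the library labelled VCaPENZR, and KLK3 was at 465 and 0.774. KLK3 also fell in C4-2BENZR, from 2045 ± 30.3 to 48.6 ± 0.797 (SD, n = 2 libraries per group), so a low KLK3 alone does not mark a library. By ERG the library labelled VCaPENZR goes against its label, though whether the label is wrong was not tested. Its comparison with VCaP is given apart from the other comparisons, and the library is named where its values stand beside theirs. Of 10 markers of fibroblasts, endothelium and blood, 3 or 4 were listed in a table, and PTPRC, PECAM1, CDH5, DCN, COL1A2 and HBB were listed in none. Their summed level was 22.1 to 25.4 in C4-2B and 53.9 to 57.8 in C4-2BENZR, 39.5 in CWR-R1 and 92.9 in CWR-R1ENZR, and 35.1 in VCaP and 37.2 in the library labelled VCaPENZR. The largest share in C4-2BENZR was that of the collagen gene COL1A1, which rose from 13.7 ± 1.98 to 50.8 ± 3.72 (SD, n = 2 libraries per group) and was at 22.2 and 63.6 in the CWR-R1 pair. The other fibroblast marker listed, LUM, had 0 reads in C4-2B and was at 0.567 and 1.22 in C4-2BENZR, and it went against COL1A1 in the CWR-R1 pair, at 11.6 and 2.81. HBA1, a haemoglobin gene, fell from 2.71 ± 0.176 to 0.408 ± 0.242 in C4-2BENZR. The endothelial marker VWF fell from 7.39 ± 0.201 to 3.71 ± 0.237 in C4-2BENZR and was at 5.73 and 26.5 in the CWR-R1 pair. The part of these markers' source in the results below was not tested. In bulk RNA, fewer expressing cells and less RNA per cell cannot be told apart.

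The first comparison asked how the p53 targets differed between C4-2BENZR and C4-2B. GDF15, which encodes a secreted stress cytokine, fell most, while the antiproliferative gene BTG2, the sestrin gene SESN1, the decoy receptor gene TNFRSF10D, the oxidoreductase gene TP53I3 and GADD45A each rose by less than 2-fold. CDKN1A, which encodes the cell cycle inhibitor p21, did not pass the test, with a mean of 133 in both groups. All 31 genes passed the filter on low values; 11 rose and 6 fell (limma on log2(level + 1), 2 libraries against 2, adjusted p below 0.05 over 13280 genes). Of all genes tested, 27.8% rose and 29.0% fell, so the 54.8% of targets called is near the 56.8% called in either direction. The median log2 change of the targets was 0.07 against 0.00 for all genes tested. Groups did not overlap in 25 of 31 targets, beside 77.4% of all genes. Scaling by library totals alone moved the median of all genes to 0.10 and that of the targets to 0.17. All genes tested then split into 4757 higher and 2923 lower, in place of 3691 and 3856.

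Among the feedback genes, MDM2 was at 155 and 172 in the C4-2B libraries and at 186 and 173 in the C4-2BENZR libraries. The C4-2BENZR libraries were the higher, by a narrow margin, and the change of 0.13 ± 0.06 log2 (SE) did not pass (limma adjusted p = 0.0737, and 0.00245 to 0.474 over 14 alternatives). It passed without C4-2B replicate 2 (limma adjusted p = 0.0133), without C4-2BENZR replicate 2 (0.0436) and when libraries were scaled by their totals alone (0.00245). PPM1D, a phosphatase that dampens p53 signalling, was at 24.6 ± 0.0254 against 29.2 ± 3.97 (SD, n = 2 libraries per group) and also did not pass (limma adjusted p = 0.0844, and 0.0147 to 0.616 over the alternatives). Leaving out C4-2BENZR replicate 1 brought it past the threshold (0.0246), as did scaling by totals alone (0.0147). CCNG1, which encodes cyclin G1, was at 191 and 213 in C4-2B and at 116 and 120 in C4-2BENZR. It fell 1.71-fold, and the groups lay far apart (log2 change -0.77 ± 0.06, limma adjusted p = 2.15e-08).

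Of 6 genes that act on the cell cycle, 3 rose and 0 fell. CDKN1A was at 133 and 134 in the C4-2B libraries and at 136 and 131 in the C4-2BENZR libraries. The groups overlapped, and the log2 change was 0.00 ± 0.06 (limma adjusted p = 0.981, and 0.130 to 0.981 over the alternatives). BTG2 was at 23.6 and 21.6 against 44.7 and 40.9. It rose 1.89-fold with no overlap (limma adjusted p = 1.01e-06). GADD45A, a stress sensor that inhibits cell cycle kinases, was at 9.18 and 5.43 against 11.7 and 14.4 and rose 1.79-fold (limma adjusted p = 0.00248). Its C4-2B libraries differed by 0.66 log2, the widest replicate gap among the targets, against a median gap of 0.07. The polo-like kinase gene PLK2 rose 1.41-fold, from 8.22 ± 0.459 to 11.6 ± 0.442 (SD, n = 2 each; limma adjusted p = 0.0176, and 0.00499 to 0.106 over the alternatives). The PLK2 call was lost without C4-2B replicate 1 (0.0641), C4-2BENZR replicate 1 (0.0514) or C4-2BENZR replicate 2 (0.106), and with DESeq2 (0.0570). PLK3 and SERTAD1, which encodes a partner of cyclin D kinases, had log2 changes of 0.05 and 0.15 and did not pass.

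The 10 genes linked to cell death moved both ways, with 3 that rose and 3 that fell. BBC3, which encodes the mitochondrial death activator PUMA, was at 7.12 and 8.75 in C4-2B and at 3.31 and 4.46 in C4-2BENZR. It fell 2.04-fold with no overlap (limma adjusted p = 0.000879). EI24 fell 1.39-fold, from 317 ± 18.7 to 227 ± 8.53, and TP53INP1 fell 1.19-fold, from 110 ± 2.29 to 92.1 ± 2.45 (SD, n = 2 libraries per group). TNFRSF10D, a decoy receptor for the death ligand TRAIL that lacks a working death domain, was at 29.6 and 28.4 against 48.8 and 46.0 and rose 1.64-fold (limma adjusted p = 5.45e-06). The signalling TRAIL receptors differed less. TNFRSF10A rose 1.25-fold to 23.0 ± 1.82 (SD, n = 2; limma adjusted p = 0.0316, and 0.00618 to 0.242 over the alternatives), a call lost without C4-2B replicate 1 (0.0968), without C4-2BENZR replicate 1 (0.242) and with DESeq2 (0.0753). TNFRSF10B was at 153 ± 7.80 and 167 ± 0.904 and did not pass (0.0816, and 0.00226 to 0.421 over the alternatives), though it did without C4-2B replicate 1 (0.0353) and with scaling by totals alone (0.00226). These receptors are paralogs, and whether they share reads was not checked. PHLDA3, which restrains the kinase AKT, rose 1.41-fold from 35.2 ± 1.56 to 49.7 ± 1.82 (SD, n = 2; limma adjusted p = 0.000131). FAS was at 6.86 and 7.25 against 6.14 and 8.11, PMAIP1, which encodes the death activator NOXA, at 8.56 and 8.95 against 8.65 and 7.41, and AEN, an apoptosis-linked nuclease, at 75.6 and 76.6 against 79.3 and 78.9. None of the 3 passed the test.

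In metabolism and stress, 3 genes rose and 1 fell. GDF15 was at 116 and 127 in the C4-2B libraries and at 20.5 and 25.3 in the C4-2BENZR libraries. It fell 5.30-fold, the largest change among the targets, with the groups well apart (log2 change -2.36 ± 0.09, limma adjusted p = 4.12e-12). SESN1, an antioxidant and nutrient-sensing protein, was at 16.5 and 16.9 against 29 and 29.9. It rose 1.76-fold, and its replicates lay within 1 unit of each other (limma adjusted p = 1.38e-05). TP53I3 was at 5.88 and 7.25 against 11.6 and 10.6 and rose 1.69-fold (limma adjusted p = 0.00188). FDXR, a mitochondrial ferredoxin reductase, rose 1.20-fold to 43.7 ± 2.08 (SD, n = 2; limma adjusted p = 0.0238, and 0.00250 to 0.167 over the alternatives). The FDXR call was lost without C4-2B replicate 2 (0.167), without C4-2BENZR replicate 1 (0.158) and with DESeq2 (0.0596). TRIAP1, an inhibitor of apoptosis, had a log2 change of -0.05, which turned to 0.045 when libraries were scaled by their totals alone, and it passed under neither.

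Of 4 DNA repair genes, 1 rose and 1 fell. RRM2B, a subunit of ribonucleotide reductase, rose 1.29-fold from 61.0 ± 0.285 to 78.5 ± 0.316 (SD, n = 2; limma adjusted p = 0.000267), and the translesion polymerase gene POLH fell 1.24-fold from 54.7 ± 1.05 to 44.0 ± 2.15 (0.00322). XPC and DDB2, which recognise damaged DNA, had log2 changes of -0.11 and 0.05 and did not pass. Of the remaining genes, RPS27L, a close relative of the ribosomal protein gene RPS27 with which reads may be shared, rose 1.19-fold (limma adjusted p = 0.00716, and 0.000388 to 0.0596 over the alternatives), a call lost without C4-2BENZR replicate 1 (0.0596). ZMAT3 and BLOC1S2 did not pass, with changes of -0.17 and 0.07. In all, 8 targets were called and changed at least 1.5-fold, beside 23.4% of all genes tested.

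**Figure D1:**
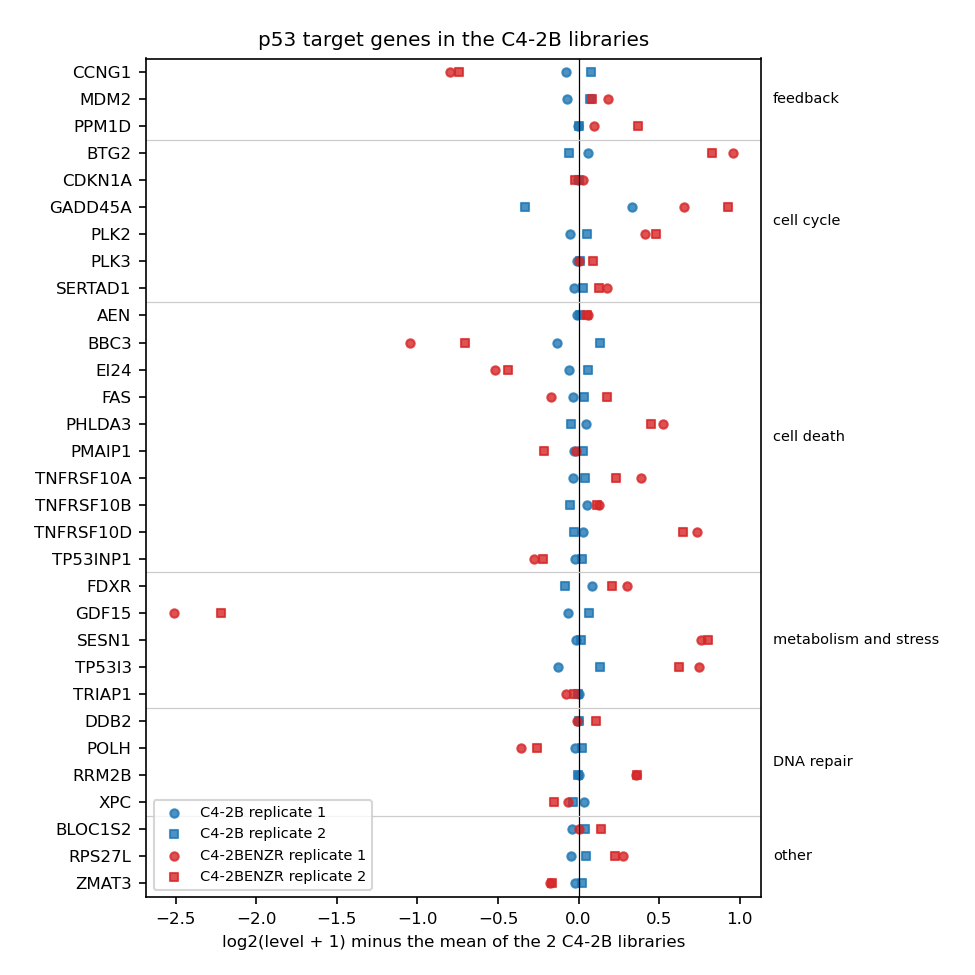
Each point is 1 library, placed by log2(level + 1) of a p53 target minus the mean of the 2 C4-2B libraries, with genes grouped by role (blue, C4-2B; red, C4-2BENZR; circles, replicate 1; squares, replicate 2). GDF15 stands alone at the far left, and the red points of BTG2, SESN1 and TNFRSF10D lie to the right of every blue point.

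The second comparison set CWR-R1ENZR against CWR-R1. With 1 library on each side, no difference here could be checked against replicates and none has a p-value. The 95% intervals given are exact Clopper-Pearson intervals and cover counting error only. The p53 targets were mostly higher in CWR-R1ENZR, led by GDF15, PLK2, CDKN1A, TP53I3 and PHLDA3. Of 30 targets with a level of at least 5 in either library, 9 were at least 2-fold higher on the log2(level + 1) scale, beside 9.79% of all 12462 genes, and 2 were at least 2-fold lower, beside 10.3%. A total of 25 of 30 had a positive log2 ratio, against 6104 of 12462 genes. The median log2 ratio was 0.67 for the targets and -0.02 for all genes.

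In the cell cycle group, the level of CDKN1A was 52.2 in CWR-R1 against 594 in CWR-R1ENZR, 11.4-fold higher (10.6 to 12.3). PLK2 was at 3.10 and 73.3 (23.6-fold, 17.6 to 32.5), BTG2 at 13.2 and 64.5 (4.88-fold, 4.18 to 5.72) and PLK3 at 12.9 and 37.2 (2.89-fold, 2.44 to 3.42). SERTAD1, at 8.43 and 16.4, and GADD45A, at 107 and 115, were under 2-fold. All 6 genes of the group had a positive ratio.

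Metabolism and stress genes held the largest difference of all. GDF15 stood at 24.2 in CWR-R1 against 879 in CWR-R1ENZR, 36.3-fold higher (32.7 to 40.4), the opposite direction to C4-2BENZR. TP53I3 was at 1.35 (20 reads) and 12.8, 9.49-fold higher (5.97 to 15.9). SESN1, at 15.9 and 26.1, and FDXR, at 46.6 and 74.5, were 1.64-fold and 1.60-fold higher, and TRIAP1 was at 33.7 and 27.7.

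The cell death genes again went both ways. PHLDA3 was at 14 and 96.1 (6.85-fold higher, 5.92 to 7.96) and TP53INP1 at 38.8 and 126 (3.24-fold higher, 2.95 to 3.56). PMAIP1 was at 34.1 and 13, 2.62-fold lower (2.22 to 3.11), and EI24 at 158 and 76.7, 2.05-fold lower (1.91 to 2.21). BBC3, at 38.7 and 74.7, TNFRSF10B, at 179 and 319, and AEN, at 44.6 and 75.8, were higher by 1.93-fold, 1.78-fold and 1.70-fold, while FAS was at 11 and 7.10. TNFRSF10D did not reach the low-value filter: it was at 4.66 (69 reads) and 0.402 (6 reads), 11.6-fold lower (5.06 to 32.6), whereas it rose in C4-2BENZR.

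Outside these groups, ZMAT3, which encodes an RNA-binding protein, was at 44.6 and 119, 2.66-fold higher (2.43 to 2.92). The 4 DNA repair genes were each higher by less than 2-fold, from 1.22-fold for DDB2 to 1.5-fold for RRM2B. MDM2, at 233 and 212, was 1.10-fold lower (1.05 to 1.16), while PPM1D was 1.75-fold and CCNG1 1.16-fold higher. MDM2 did not share the difference seen in CDKN1A. Its log2 ratio of -0.14 became -0.056 when libraries were scaled by their totals alone.

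**Figure D2:**
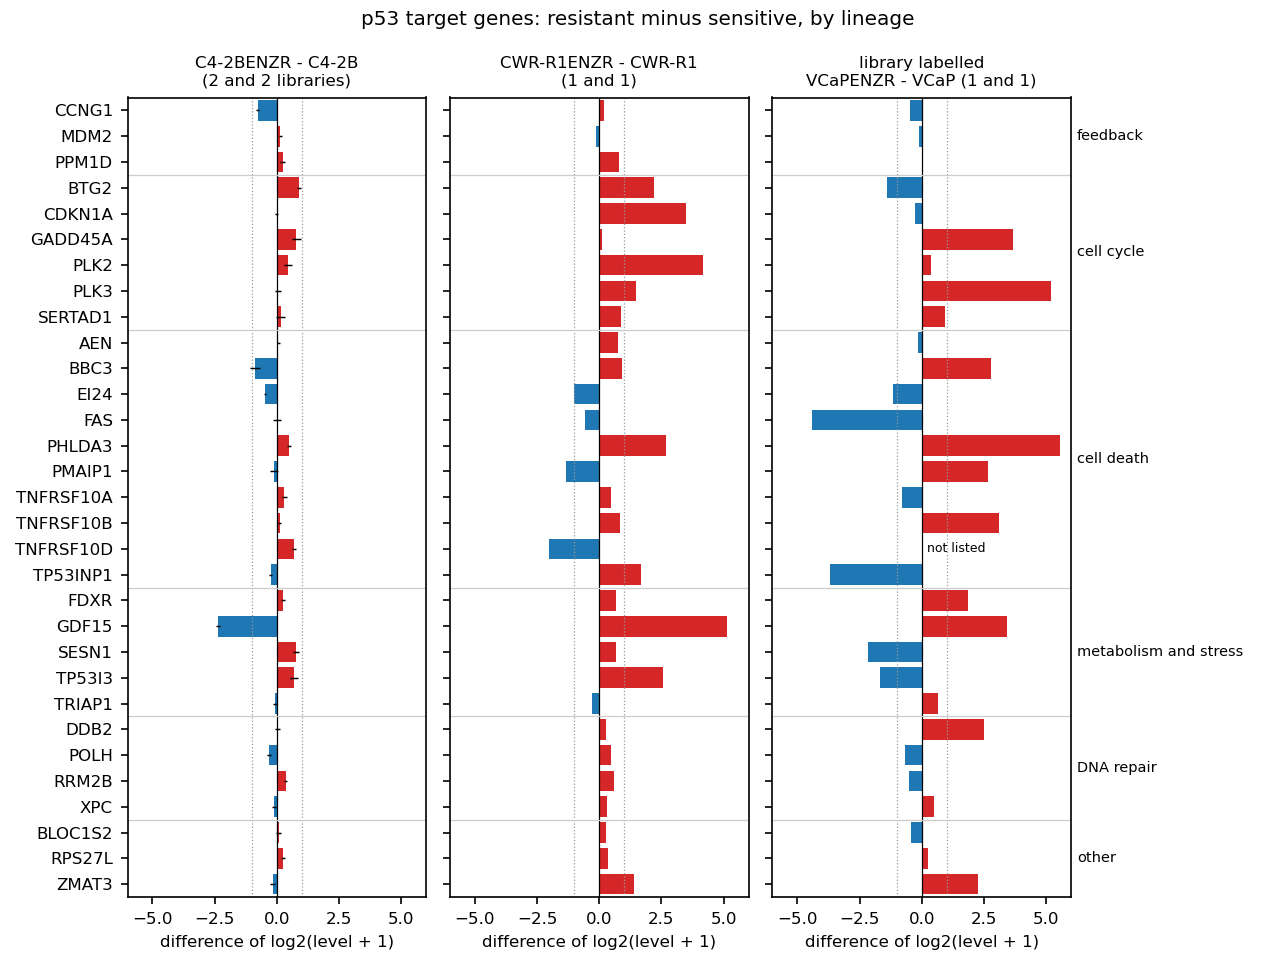
Bars give the difference of log2(level + 1), resistant minus sensitive, of each p53 target in the 3 tables (red higher, blue lower; error bars, SE of the limma fit, in C4-2B only; dotted lines, 2-fold). GDF15 reaches -2.36 in C4-2B and 5.12 in CWR-R1. The bars of PHLDA3 and PLK3 are longest in the comparison that uses the library labelled VCaPENZR.

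The C4-2B and CWR-R1 comparisons share no library. BTG2, PHLDA3, PLK2 and TP53I3 were called higher in C4-2B and at least 2-fold higher in CWR-R1, which makes 4 of the 30 targets measured in both, beside 3.38% of all 11667 such genes. GDF15 and TP53INP1 fell in C4-2BENZR and were at least 2-fold higher in CWR-R1ENZR. Across the 30 targets the changes in the 2 lineages had a Pearson r of -0.21 and a Spearman rho of 0.17, a description over genes that share their libraries. The corresponding values over all 11667 genes were 0.08 and 0.10.

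Levels can be set across lines only with care, because the 3 tables were normalized separately. For that purpose the reads of the 12868 genes in all 3 tables were rescaled together (TMM), and levels in this paragraph and the next are CPM on that scale. Among the sensitive lines, 20 of 30 targets spanned at least 2-fold, with a median log2 range of 1.87. The median was 1.11 for 12048 genes at 5 or more in a sensitive line, so most of those genes spanned at least 2-fold too. VCaP was lowest for 15 of the 30, among them PHLDA3 at 0.75, PLK3 at 0.38, DDB2 at 6.64, FDXR at 9.27, TNFRSF10B at 24.4 and PMAIP1 at 3.26. In the C4-2B libraries the same 6 genes were at 34.0 to 36.0, 13.7 to 13.9, 27.3 to 27.6, 34.2 to 38.4, 147 to 158 and 8.5 to 8.91, and none of these ranges reached down to VCaP. VCaP was nevertheless highest for 9, among them TP53INP1 at 813, FAS at 98.6, BTG2 at 97.2 and CDKN1A at 345. CWR-R1 was lowest for 11, CDKN1A (49.1), GDF15 (22.8) and PLK2 (2.92) included. PPM1D had the narrowest range over the sensitive lines (20.2 in VCaP, 22.9 in CWR-R1 and 24.4 to 24.5 in C4-2B), so its order does not separate the lines clearly. Over all 6 groups CWR-R1ENZR was highest for 13 of the 30 targets, CDKN1A, PLK2, BBC3 and TP53I3 among them. The other groups were each highest for 2 to 6. Without the library labelled VCaPENZR the count for CWR-R1ENZR was 16, with GDF15, PLK3 and GADD45A added. The shares of all shared genes that are highest or lowest in each line or group were not counted. These counts may therefore not be particular to the targets. The single libraries carry no spread of their own.

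**Figure D3:**
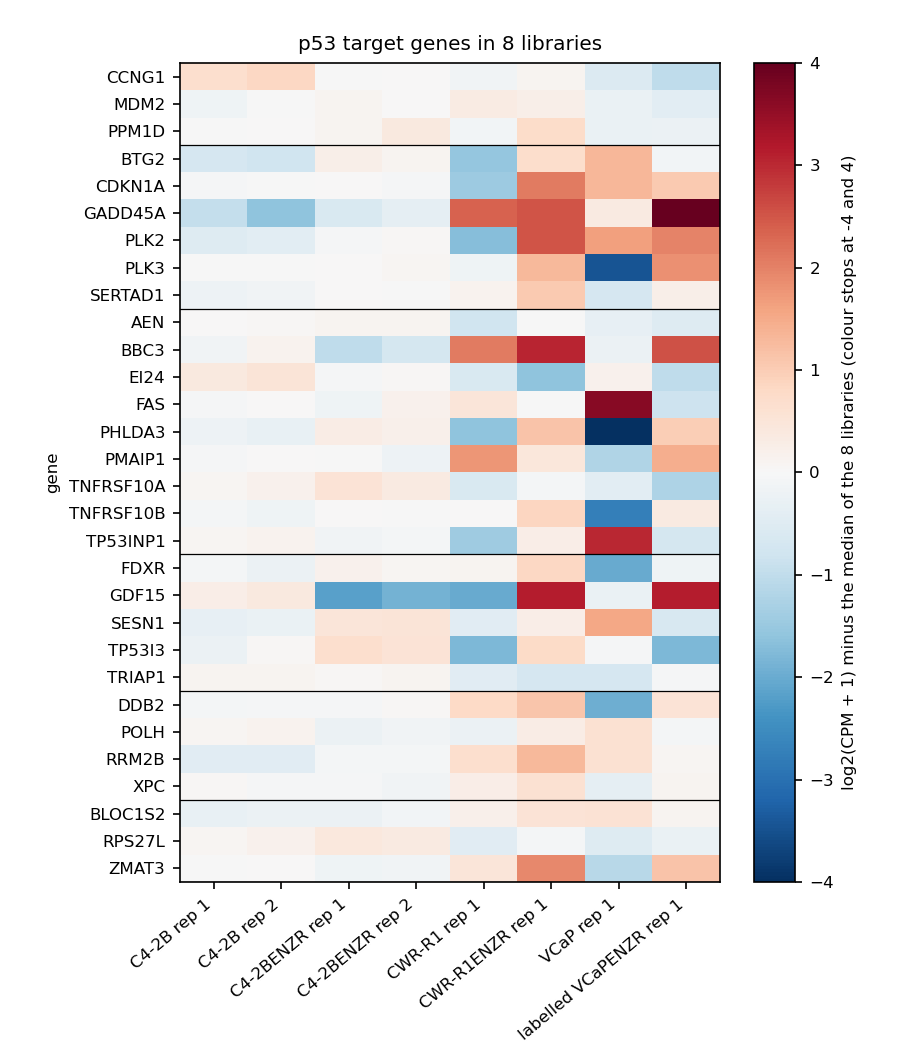
Colours show log2(CPM + 1) of the 30 p53 targets listed in all 3 tables, minus each gene's median over the 8 libraries, on the common TMM scale (red above, blue below; the colour stops at -4 and 4). PHLDA3 and PLK3 are darkest blue in VCaP, where FAS and TP53INP1 are darkest red, and GDF15 is deep red in CWR-R1ENZR and in the library labelled VCaPENZR.

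The third comparison, of the library labelled VCaPENZR with VCaP, also has 1 library per group. By ERG its resistant library goes against its label. On log2(level + 1) of the levels as deposited, 10 of 30 targets were at least 2-fold higher in it than in VCaP (beside 21.1% of 12502 genes). On the same scale 6 were at least 2-fold lower (beside 22.0%). SERTAD1, at 3.76 and 7.98, is not among the 10, though it was 2.12-fold higher (1.57 to 2.90) without the added 1. PLK3 was at 0.342 (6 reads) and 47.9, 140-fold higher (64.2 to 384), and PHLDA3 at 0.683 (12 reads) and 78, 114-fold higher (65.1 to 222). GADD45A was at 21.9 and 287 (13.1-fold higher), GDF15 at 73.2 and 791 (10.8-fold), TNFRSF10B at 22.2 and 198 (8.93-fold) and PMAIP1 at 2.96 and 24.0 (8.11-fold). BBC3, DDB2, ZMAT3 and FDXR were 7.85-fold, 6.53-fold, 5.10-fold and 3.95-fold higher. In the other direction, FAS was at 89.6 and 3.22, 27.9-fold lower (21.2 to 37.3), and TP53INP1 at 739 and 56.7, 13-fold lower (12.2 to 13.9). TP53I3, SESN1, BTG2 and EI24 were 5.12-fold, 4.79-fold, 2.72-fold and 2.24-fold lower. CDKN1A (313 and 259) and MDM2 (130 and 119) differed by less than 2-fold. These values compare the libraries as labelled and do not show what resistance changed in VCaP.

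Set beside the other lines on the common scale, the library labelled VCaPENZR was nearer to CWR-R1ENZR than to VCaP for 19 of 30 targets (63.3%, beside 71.8% of 12868 genes), and nearer to sensitive CWR-R1 than to VCaP for 22 (beside 68.7%). Of CWR-R1 and CWR-R1ENZR, it was nearer to sensitive CWR-R1, a comparison added after the data were seen, for 20 of 30 (66.7%, beside 45.3% of all genes). The median absolute log2 difference over the targets was 0.42 from CWR-R1, 0.73 from CWR-R1ENZR and 1.31 from VCaP, and over all shared genes it was 0.42, 0.38 and 0.78. TP53I3 was at 1.29 in it, 1.27 in CWR-R1, 12.4 in CWR-R1ENZR and 6.70 in VCaP. FDXR, at 36.1, lay below both CWR-R1 (43.9) and CWR-R1ENZR (72.1). GDF15, at 858, lay beside CWR-R1ENZR (851) and far above CWR-R1 (22.8), and so did PHLDA3, at 84.6 beside 93.0 and 13.2. PLK2, at 49.4, was far above CWR-R1 (2.92) but lay between VCaP (38.3) and CWR-R1ENZR (71.0), nearer to VCaP. GADD45A, at 311, was above CWR-R1ENZR (112) and CWR-R1 (101) alike. Some targets of this library thus lay near one form of CWR-R1 and some near the other. CDKN1A, PLK2, MDM2, RRM2B, AEN, CCNG1 and PPM1D were nearer to VCaP than to either form.

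**Figure D4:**
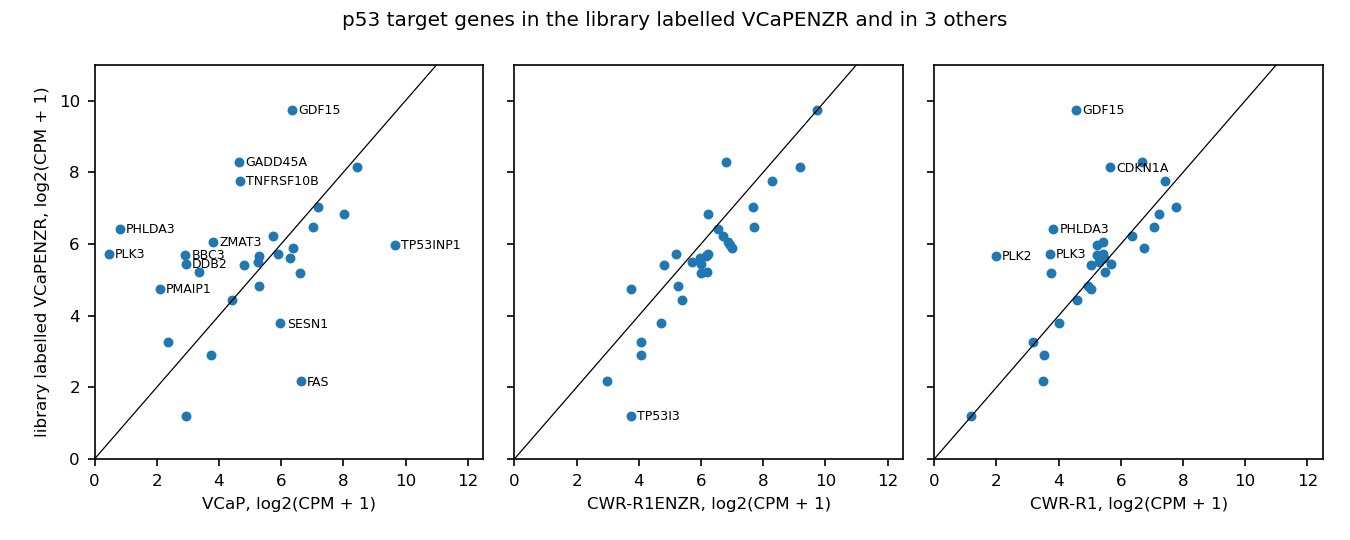
Each point is 1 of 30 p53 targets, with its log2(CPM + 1) in the library labelled VCaPENZR on the vertical axis and in VCaP, CWR-R1ENZR or CWR-R1 on the horizontal axis; the line marks equal levels and names are given at 4-fold or more. Points scatter widely against VCaP, and against CWR-R1 the named points are GDF15, PLK2, PHLDA3, CDKN1A and PLK3.

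The counts for 3 further lists of pathway genes follow. Of 25 measured regulators of p53, 9 rose and 4 fell in C4-2BENZR (median log2 change 0.08), beside 27.8% and 29.0% of all genes, and the 13 called of 25 are near the 56.8% called in either direction. HIPK2, a kinase that phosphorylates p53, rose from 137 ± 9.30 to 281 ± 12.2, and MDM4, an inhibitor of p53 related to MDM2, from 49.8 ± 8.42 to 64.1 ± 7.23 (SD, n = 2 libraries per group). The MDM4 call (limma adjusted p = 0.00655, and 2.03e-06 to 0.0868 over the alternatives) was lost without C4-2B replicate 2 (0.0868). In CWR-R1ENZR only PPP1R13L, another inhibitor of p53, was past 2-fold, at 75.8 and 170. TP63 was not listed in any table. Among 26 further targets of p53 in the C4-2B fit, 9 rose and 7 fell (median -0.04), again near the 56.8% of all genes called in either direction. The largest changes were those of TP53I11 (27.5 ± 2.44 to 128 ± 1.31) and the antiproliferative gene BTG1 (114 ± 0.324 to 490 ± 7.33), and CMBL, a hydrolase gene, fell most (176 ± 8.85 to 97.2 ± 2.15). Of 25 such targets in CWR-R1, 3 were higher by 2-fold or more and 1 was lower (median 0.48), beside 9.79% and 10.3% of all genes. The cytokine gene LIF was at 0.877 and 16.3, CDIP1 at 52.7 and 119 and SPATA18 at 3.37 and 8.44, while CMBL was lower, at 173 and 44.1.

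Genes that p21 is known to repress through cell cycle complexes went different ways in the 3 comparisons. Of 24 measured, 17 fell and 2 rose in C4-2BENZR (median log2 change -0.25), beside 29.0% and 27.8% of all genes, where CDKN1A had a log2 change of 0.00, and the cyclin gene CCNA2 fell from 102 ± 3.87 to 58.6 ± 2.62 (SD, n = 2 libraries per group). In CWR-R1ENZR, where CDKN1A was 11.4-fold higher, 8 of 24 were at least 2-fold lower and 0 higher (median -0.64), beside 10.3% and 9.79% of all genes. LMNB1, a nuclear lamin, was at 374 and 117 there, and the mitotic kinase gene AURKB at 169 and 55.4. In the library labelled VCaPENZR against VCaP, 13 of 24 were higher by 2-fold or more and 0 were lower (median 1.04). The shares of all genes were 21.1% and 22.0%, and CDKN1A was 1.21-fold lower. By ERG that library goes against its label. Whether CDKN1A bears on these genes was not tested in any of the 3 comparisons.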

How the data were processed

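RNA was column-purified, treated with DNase and sequenced as paired ends, per the labels' protocols. Per the submitters' processing notes, hg19 served as the build; the sources used here name no aligner or counter. For each lineage, the authors deposited normalized signal values by gene. Within 0.02 reads, 100% of these signal values were whole multiples of what 1 read is worth in that library, so they are counts over a scaled depth. The deposited p-value columns and the signed fold score of the authors were not used.

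In C4-2B, log2(level + 1) of genes reaching 1 in 2 or more libraries was modelled in limma 3.58.1 (trend, no block, two-sided, Benjamini-Hochberg, 0.05). In the other tables, ratios of level + 1 were counted at 2-fold among genes at 5 or more in either library. Where a ratio and interval are printed, they use the levels without the pseudocount. The common scale is TMM from edgeR 4.0.16. The fit was tested on simulated data. Alternatives included edgeR, DESeq2 1.42.0, other scalings, filters and pseudocounts. Because the values are scaled and not raw, limma was the main test and the count tools were alternatives.

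All 31 targets are accounted for. Those changed at least 1.5-fold and called in C4-2B, or at least 2-fold elsewhere, are given per library, with MDM2 and CDKN1A in any case. The exceptions are BBC3, DDB2, ZMAT3, FDXR, TP53I3, SESN1, BTG2 and EI24 in the VCaP comparison, which are given there by fold only. Other pathway genes were named from the largest changes in each list, with MDM4. One further gene that the rule would name is not reported here. The targets and lists were chosen with earlier results of these data known. Of the 10 markers of other cells, 3 passed the filter in each table. RefSeq promoter coordinates (GRCh38.p14) differ in build from the tables and were not joined to them by position.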

Additional observations from a re-analysis of the deposited data

Results flagged for a closer look

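Several p53 targets moved in opposite directions in different lineages. None of these differences was tested, since CWR-R1 and VCaP have 1 library per group. Each value is the difference between log2 changes. GDF15 was lower in C4-2BENZR and higher elsewhere, with a difference of 7.49 for CWR-R1 minus C4-2B and 5.78 for VCaP minus C4-2B. TP53INP1 differed by 1.92 for CWR-R1 minus C4-2B and by -5.35 for VCaP minus CWR-R1. BBC3, lower in C4-2BENZR, differed by 3.65 for VCaP minus C4-2B. BTG2 differed by -2.31 for VCaP minus C4-2B and by -3.62 for VCaP minus CWR-R1, TP53I3 by -2.38 and -4.25, and SESN1 by -2.95 for VCaP minus C4-2B. PMAIP1, lower in CWR-R1ENZR, differed by 3.98 for VCaP minus CWR-R1. Every value that involves VCaP rests on the library labelled VCaPENZR, which by ERG goes against its label. Without that library, the values of GDF15 (7.49) and TP53INP1 (1.92) between CWR-R1 and C4-2B remain.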

How the results depend on the processing

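In C4-2B, leaving out 1 library gave 8 to 11 targets higher and 6 lower, and 5 higher and 3 lower were also at least 1.5-fold. Scaling by library totals alone gave 15 higher and 6 lower. The replicate numbers do not say what replicates share: libraries of equal number deviated with a correlation of 0.05 over 13280 genes. On the recovered reads, edgeR called 7522 of 13280 genes (11 targets higher, 6 lower) and DESeq2 6378 (8 higher, 6 lower). With the number as a replicate block, limma called 8248 genes; 14 targets were higher, MDM2 (0.0148), TNFRSF10B (0.0203) and PPM1D (0.0448, limma adjusted p) added, and 6 lower, and 14 regulators, 18 further targets and 23 p21-repressed genes were called, against 13, 16 and 19 without it. Signs turned for targets that did not pass: leaving out 1 library gave -0.025 to 0.028 for CDKN1A, -0.17 to 0.18 for FAS and -0.012 to 0.11 for DDB2, and TRIAP1 was at 0.045 when scaled by library totals alone. The cause was not tested. In CWR-R1, 16 targets were at least 1.5-fold higher. The share of all genes was not counted at that cut, nor with 1 library left out of C4-2B. The 2 targets lower there became 1 with a pseudocount of 5, 1 with total counts only and 0 at 3-fold. With 2 libraries or 1 per group, spread within a line is poorly known, and differences in targets of few reads (PLK3 and PHLDA3 in VCaP) have wide intervals.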
